A study of Mus musculus with 3 samples.

Results

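The genes described are 10 components of the NOTCH pathway measured in single cells of the mouse dorsal cortex: the ligands Dll1, Dll3 and Jag1, the receptors Notch1, Notch2 and Notch3, and the Hes family genes Hes1, Hes5, Heyl and Hes6. They were taken by gene symbol from the 27998 genes counted, and each matched 1 row in all 3 libraries. The libraries are a control with floxed Map2k1 and Map2k2, an Emx1-Cre mutant (EMX-Cre_MAP2K1/2-dcko) and an hGFAP-Cre mutant (hGFAP-Cre_MAP2K1/2-dcko), in which Cre was paired with the same targeted genes. These encode MEK1 and MEK2, the kinases upstream of ERK. Emx1-Cre acts in cortical progenitors and hGFAP-Cre, driven by the human GFAP promoter, in radial glia at a later stage. All pups received the dye FlashTag in the lateral ventricle at embryonic day 18, and tdTomato-positive cells were sorted from their cortices at postnatal day 2. Which allele carried tdTomato, and how many pups made up a library, is not given in the sources used here.

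In NOTCH signalling, a ligand of the Delta or Jagged family on a sending cell binds a NOTCH receptor on its neighbour. The receptor is then cleaved, and its intracellular part joins the DNA-binding protein RBPJ to switch on Hes and Hey genes in the receiving cell. Hes1 and Hes5 repress proneural genes such as Neurog2, which in turn drive Dll1, so senders and receivers tend to become different cells. In the developing cortex the pathway is known for keeping radial glia undifferentiated and for favouring astrocyte fate. Hes6 and Dll3 stand apart: Hes6 opposes Hes1 and marks cells leaving the progenitor state, and Dll3 is a divergent ligand that dampens signalling within the cell that makes it.

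Each genotype was 1 library, so no test between genotypes was possible, no p-value is given, and every interval covers counting error only. Both mutants were compared with the same control library, and their values are set side by side on that footing. The libraries held 11886 to 13214 barcodes and 84016524 to 89917586 UMIs, and 9520 control, 12223 Emx1-Cre and 11991 hGFAP-Cre cells were kept. Xist was at 1462 CPM (counts scaled to a common total of UMIs) in the control against 0.122 and 0.956 CPM in the mutants. The Y-linked Ddx3y was at 0, 37.2 and 45.6 CPM in the same order, so sex and genotype cannot be told apart. Map2k1 was at 13.9 to 16.6 CPM and Map2k2 at 196 to 217 CPM in the 3 libraries, but these 3′ tags need not lie in the deleted part and check neither deletion nor label. Pairs of libraries shared 43 to 54 barcodes. Cells were clustered without the NOTCH genes and named from marker lists, and 13 classes had at least 50 cells in some library. Unnamed clusters took 1.67% of the control, and 27.4% and 19.7% of Emx1-Cre and hGFAP-Cre cells.

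Over whole libraries, Dll1 (ENSMUSG00000014773, GRCm38 chromosome 17, 15367354 to 15376872) was at 19.6 CPM in the control, 4.5 with Emx1-Cre and 11.3 with hGFAP-Cre. Hes5 (ENSMUSG00000048001, chromosome 4, 154960923 to 154962371) was at 332, 128 and 159 CPM, and Hes1 (ENSMUSG00000022528, chromosome 16, 30064384 to 30067796) at 159.6, 80.3 and 64.7 CPM. The control was thus the highest library for this ligand and for both canonical targets. Notch2 (ENSMUSG00000027878, chromosome 3, 98013527 to 98150361) was at 61.5, 24.4 and 75.9 CPM, low in the Emx1-Cre library only. These whole-library levels mix the cells' own levels with how many cells of each class were sorted, and the classes separate those parts below.

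Levels are given for classes of at least 50 cells in a library, and for the 36 mural-like control cells where stated. Dll1 and Dll3 had their highest control levels in multipotent and oligodendrocyte precursor-like cells. Dll1, the main trans-activating Delta ligand of cortical progenitors, was at 150.5 CPM (95% interval 140 to 161) in control multipotent progenitor-like cells, the Egfr and Olig1 class. Control oligodendrocyte precursor-like cells followed at 59.7 CPM (41.1 to 83.9), and intermediate progenitor-like (19.9 CPM) and astroglia-like cells (17.2 CPM) had intervals that overlapped. In the hGFAP-Cre mutant the multipotent class, 124 cells against 542 in the control, was at 150.9 CPM, the same as in the control within counting error. The Emx1-Cre mutant had 6 such cells and no level is given for them. Multipotent cells gave 52.4% of the control's Dll1 UMIs from 6.8% of all UMIs of kept cells, while in the hGFAP-Cre mutant 49.2% came from intermediate progenitor-like cells. In the Emx1-Cre mutant the leading source was also intermediate progenitor-like cells, with 29.6%, followed by ependymal-like cells with 27.5%.

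Dll3 (ENSMUSG00000003436, chromosome 7, 28293553 to 28302238) was at 153.8 CPM in control oligodendrocyte precursor-like and 138.7 CPM in control multipotent cells, with overlapping intervals. Cajal-Retzius-like cells, the Reln neurons of the cortical surface, were at 48.6 CPM in the control, 103.4 with Emx1-Cre and 86.6 with hGFAP-Cre, a level 2.13-fold (1.73 to 2.64) and 1.78-fold (1.42 to 2.25) higher. They gave 49.0% of all Dll3 UMIs in the Emx1-Cre mutant, where this class held 1416 cells against 107 in the control. Dll1 in these cells was at 1.2 to 1.4 CPM in each library. The median Cajal-Retzius-like cell had 18722 UMIs in the control against 6122 and 8940 in the mutants. The excitatory neuron classes had low Dll3, between 11.4 CPM in control upper-layer neuron-like cells and 25.6 CPM in Emx1-Cre deep-layer neuron-like cells.

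Jag1 (ENSMUSG00000027276, chromosome 2, 137081456 to 137116644), a Jagged ligand of progenitors and blood vessels, had a wider distribution. Control multipotent (46.9 CPM), endothelial-like (46.0 CPM), Cajal-Retzius-like (32.4 CPM) and astroglia-like cells (28.4 CPM) followed each other, with intervals that overlapped from each to the next. In the mutants, Cajal-Retzius-like cells were lower, at 16.6 CPM (14.0 to 19.5) with Emx1-Cre and 21.4 CPM (16.7 to 26.9) with hGFAP-Cre. The control interval (25.2 to 41.1) overlapped only that of hGFAP-Cre. Mural-like cells, the contractile cells around vessels, were at 87.5 CPM with Emx1-Cre and 139.7 CPM with hGFAP-Cre. The 36 mural-like control cells were at 105.1 CPM (67.4 to 156). Astroglia-like cells gave 55.5% of the control's Jag1 UMIs. The leading class was another one in each mutant: ependymal-like cells with 39.6% in the Emx1-Cre and intermediate progenitor-like cells with 41.7% in the hGFAP-Cre mutant.

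**Figure D1:**
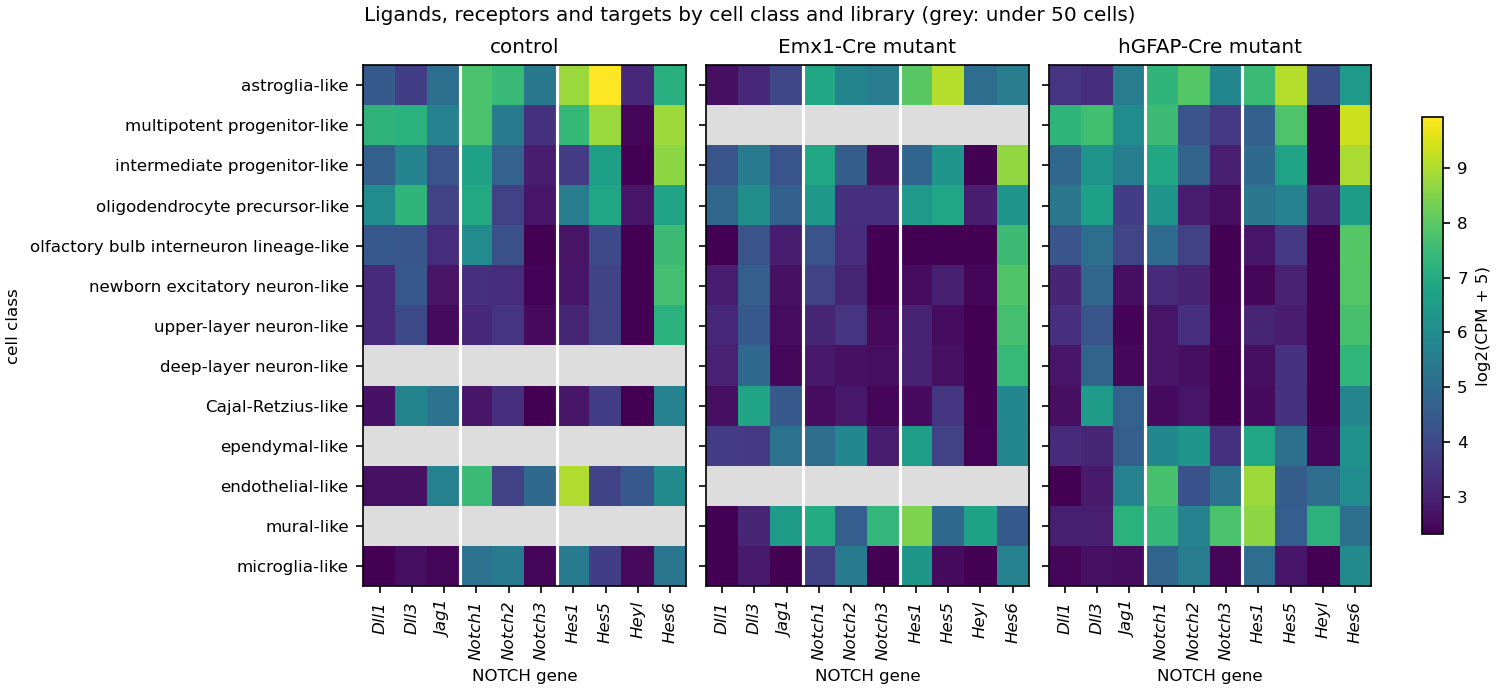
Level of the 10 NOTCH genes, as log2(CPM + 5), by cell class (rows) in each of the 3 libraries (panels), with ligands, receptors and Hes genes set apart by white lines and classes under 50 cells in grey. Hes1 and Hes5 are bright in the astroglia-like row of all 3 panels, Dll1 is brightest in the multipotent row of the control and hGFAP-Cre panels, and the excitatory neuron rows hold little besides Dll3 and Hes6.

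Among control classes of at least 50 cells, which leave out 36 mural-like cells, the receptors were highest in astroglia-like cells, joined by multipotent cells for Notch1 and endothelial-like cells for Notch3. With Emx1-Cre, Notch2 was about as high in ependymal-like (52.8 CPM) as in astroglia-like cells (49.0 CPM, overlapping intervals), and Notch1 in intermediate progenitor-like cells (114.0 CPM) as in astroglia-like cells (113 CPM). Notch1 (ENSMUSG00000026923, chromosome 2, 26457903 to 26516663) was at 212 CPM in both astroglia-like and multipotent cells of the control and at 176 CPM in endothelial-like cells. Notch2 had 1 leading class in the control, astroglia-like cells at 172 CPM (167 to 178), and the next, microglia-like cells, was at 39.8 CPM. Notch3 (ENSMUSG00000038146, chromosome 17, 32120820 to 32166852), known as the receptor of mural cells, was at 36.8 CPM in control astroglia-like and 25.3 CPM in endothelial-like cells, with overlapping intervals. In mural-like cells Notch3 was at 158 CPM with Emx1-Cre and 214 CPM with hGFAP-Cre, and at 456 CPM (372 to 552) in the 36 control cells. The excitatory neuron classes were at 9.3 CPM or less for Notch1 and 6.1 CPM or less for Notch2 in each library, the low end of the range.

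Among the Hes family, Hes1 and Hes5 differed in where they were found. Hes1 led in control endothelial-like cells (514 CPM, 479 to 551), followed by astroglia-like cells at 438 CPM (429 to 447) and multipotent cells at 161 CPM. Hes5, a target known from neural progenitors, was at 967 CPM in control astroglia-like and 434 CPM in multipotent cells but at 9.72 CPM in endothelial-like cells. Heyl (ENSMUSG00000032744, chromosome 4, 123233556 to 123249875), a NOTCH target of vascular muscle, reached 98.9 and 142.4 CPM in mural-like cells of the Emx1-Cre and hGFAP-Cre mutants. The 36 mural-like control cells were higher, at 232 CPM (174 to 304). The mural-like cluster had 6 mural markers raised and also 3 of meningeal fibroblasts. The part of its makeup in the Notch3 and Heyl levels was not tested. Hes6 (ENSMUSG00000067071, chromosome 1, 91411483 to 91414038) was at 445 CPM in multipotent and 391 CPM in intermediate progenitor-like cells of the control and stayed between 139 and 232 CPM in the excitatory neuron classes of the 3 libraries. This neuronal Hes6 stood beside Hes1 at 3.6 CPM or less in the same classes.

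The promoters of Hes5 and the 3 ligands are shown because Hes5 is the direct target that the astroglial results turn on and the ligands are the signals that start the pathway. RefSeq (GRCm38.p6) gives a start site for 8 of the 10 genes. The 250 bases before it are printed 5′ to 3′ on the gene's strand. Capitals mark TGGGAA, the core read by RBPJ, on either strand in Hes5, and CAGCTG, an E-box that reads the same on both strands and is of a kind bound by basic helix-loop-helix factors, in the ligands. The regions are chr4:154960673-154960922 on the plus strand for Hes5 and, on the minus strand, chr17:15376933-15377182 for Dll1, chr7:28301786-28302035 for Dll3 and chr2:137116521-137116770 for Jag1.
Hes5: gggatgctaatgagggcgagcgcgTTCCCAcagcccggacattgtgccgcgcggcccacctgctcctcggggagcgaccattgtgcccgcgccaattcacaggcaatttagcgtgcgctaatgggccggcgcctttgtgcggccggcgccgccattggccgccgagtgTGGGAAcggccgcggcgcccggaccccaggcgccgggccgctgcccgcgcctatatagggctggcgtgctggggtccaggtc
Dll1: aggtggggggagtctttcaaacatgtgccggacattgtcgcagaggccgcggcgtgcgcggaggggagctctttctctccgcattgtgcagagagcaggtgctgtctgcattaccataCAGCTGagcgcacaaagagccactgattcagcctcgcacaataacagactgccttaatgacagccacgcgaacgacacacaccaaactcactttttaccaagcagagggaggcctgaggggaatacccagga
Dll3: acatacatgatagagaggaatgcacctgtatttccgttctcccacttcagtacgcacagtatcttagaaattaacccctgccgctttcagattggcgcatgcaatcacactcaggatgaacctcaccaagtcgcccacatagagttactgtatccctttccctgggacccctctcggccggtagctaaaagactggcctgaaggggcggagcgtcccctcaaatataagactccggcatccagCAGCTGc
Jag1: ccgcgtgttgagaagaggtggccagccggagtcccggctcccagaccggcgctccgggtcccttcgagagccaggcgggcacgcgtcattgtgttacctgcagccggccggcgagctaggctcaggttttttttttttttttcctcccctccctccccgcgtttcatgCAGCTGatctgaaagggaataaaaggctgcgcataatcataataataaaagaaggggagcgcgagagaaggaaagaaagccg
Hes5 held TGGGAA 2 times, starting 226 and 82 bases before the start site, the first on the opposite strand. This core was present in 21.6% of 32851 promoters of this length and in none of the other 7 matched genes. CAGCTG was present once in each ligand and in Hes6, against 13.0% of all promoters. Another set of letters, CACNAG, an N-box of the kind bound by Hes proteins, was searched on both strands and stood in the 3 receptors only, against 36.7% of all promoters. The matches are descriptions of these windows.

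Cells were then counted by whether they held a UMI of a ligand, a receptor or a target, after each cell was thinned to 2500 UMIs. In control astroglia-like cells 64.8% had a UMI of a receptor and 86.3% one of Hes1 or Hes5, while 10.3% had one of a ligand. Control multipotent cells had a ligand UMI in 50.3% and a receptor UMI in 48.2%, and both in 22.9%. Cajal-Retzius-like cells had a ligand UMI in 19.6% of control cells and in 25.7% and 25.1% of Emx1-Cre and hGFAP-Cre cells, with a receptor UMI in 0.9% or less. The ligands went opposite ways there. A Dll3 UMI was in 9.3%, 23.1% and 21.1% of control, Emx1-Cre and hGFAP-Cre cells, and a Jag1 UMI in 11.2%, 4.0% and 4.5%. By these counts control astroglia-like cells held a receptor UMI more often than a ligand UMI. Cajal-Retzius-like cells held ligand with hardly any receptor, and the multipotent class held both. Control astroglia-like cells still gave 55.5% of that library's Jag1 UMIs and 26.5% of its Dll1 UMIs. Such shares also depend on the level of each gene, and which classes send or receive signal was not tested. Upper-layer neuron-like cells, in which Hes1 and Hes5 are not part of the known programme, had a UMI of either in 3.0%, 0.9% and 1.9% of control, Emx1-Cre and hGFAP-Cre cells, and these shares are given as the background, although whether they are free RNA was not tested. Microglia-like cells, taken as the background for ligands, had a ligand UMI in 1.0% or less of cells. Before thinning, Hes5 had a UMI in 88.7%, 76.8% and 73.6% of control, Emx1-Cre and hGFAP-Cre astroglia-like cells, and after it in 70.8%, 55.1% and 57.0%. The median cell of the upper-layer class had 5775, 6781 and 9032 UMIs and the median astroglia-like cell 8363, 7681 and 5425 UMIs.

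Within the multipotent class of the control, a smaller share of the cells with Delta ligand than of the others had a UMI of a Hes target. Of 233 cells with a UMI of Dll1 or Dll3, 58 (24.9%, exact binomial 95% interval 19.5% to 31.0%) had a UMI of Hes1 or Hes5, against 156 of 304 (51.3%, 45.5% to 57.1%) without one. In the hGFAP-Cre mutant the shares were 28.3% (17.5% to 41.4%) of 60 cells and 31.2% (20.2% to 44.1%) of 64, with overlapping intervals. Control astroglia-like cells had the same order as control multipotent cells, 56.2% (45.7% to 66.4%) of 96 Delta-positive cells against 87.6% (86.2% to 88.9%) of 2225. Dividing cluster 10 held 66 of the 96, and within it the shares were 39.4% (27.6% to 52.2%) and 72.2% (67.6% to 76.4%). The 96 cells also had a Hes6 UMI in 54.2%, against 18.4% of the rest. Emx1-Cre astroglia-like cells had 22 Delta-positive cells, of which 9.1% had a Hes6 UMI, against 10.0% of the rest, and 68.2% a Hes1 or Hes5 UMI, against 69.6%. Intermediate progenitor-like clusters did not share 1 order. In cluster 1 the Emx1-Cre shares with Hes1 or Hes5 were 13.9% (7.2% to 23.5%) of 79 Delta-positive cells and 5.7% (4.2% to 7.6%) of 783 others. In cluster 17 the hGFAP-Cre shares were 28.6% of 98 and 33.2% of 313 cells, the other way round. The intervals overlapped in both pairs. Cells of 1 library are not replicates, and whether the order of the shares differs between genotypes or classes was not tested.

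Cells with Jag1 had the larger share with a Hes target in 2 classes. In the hGFAP-Cre intermediate progenitor-like class 70 of 148 cells with a Jag1 UMI (47.3%, 39.0% to 55.7%) had Hes1 or Hes5, against 393 of 2494 (15.8%, 14.3% to 17.2%) without one. These cells lay in different clusters: cluster 19 held 88 of the 148 and cluster 1, with 1410 of the 2642 cells, held 4. Within cluster 19 the shares were 52.3% (41.4% to 63.0%) and 35.3% (30.7% to 40.1%), a smaller gap, and in clusters 17 and 23 the intervals overlapped. Control multipotent cells with Jag1 had either target in 58.2% (44.1% to 71.3%) of 55 cells, against 37.8% (33.4% to 42.3%). In astroglia-like cells the intervals of both shares overlapped in each library. In control cluster 10 the order was the other way, 44.0% (24.4% to 65.1%) of 25 cells with Jag1 against 68.9% (64.5% to 73.2%) of 454. In control cluster 9 the shares were 92.3% of 117 and 91.0% of 1174 cells. The intervals overlapped in both clusters. Having a receptor UMI went with little difference in control astroglia-like cells (86.7% against 85.5% with Hes1 or Hes5).

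**Figure D2:**
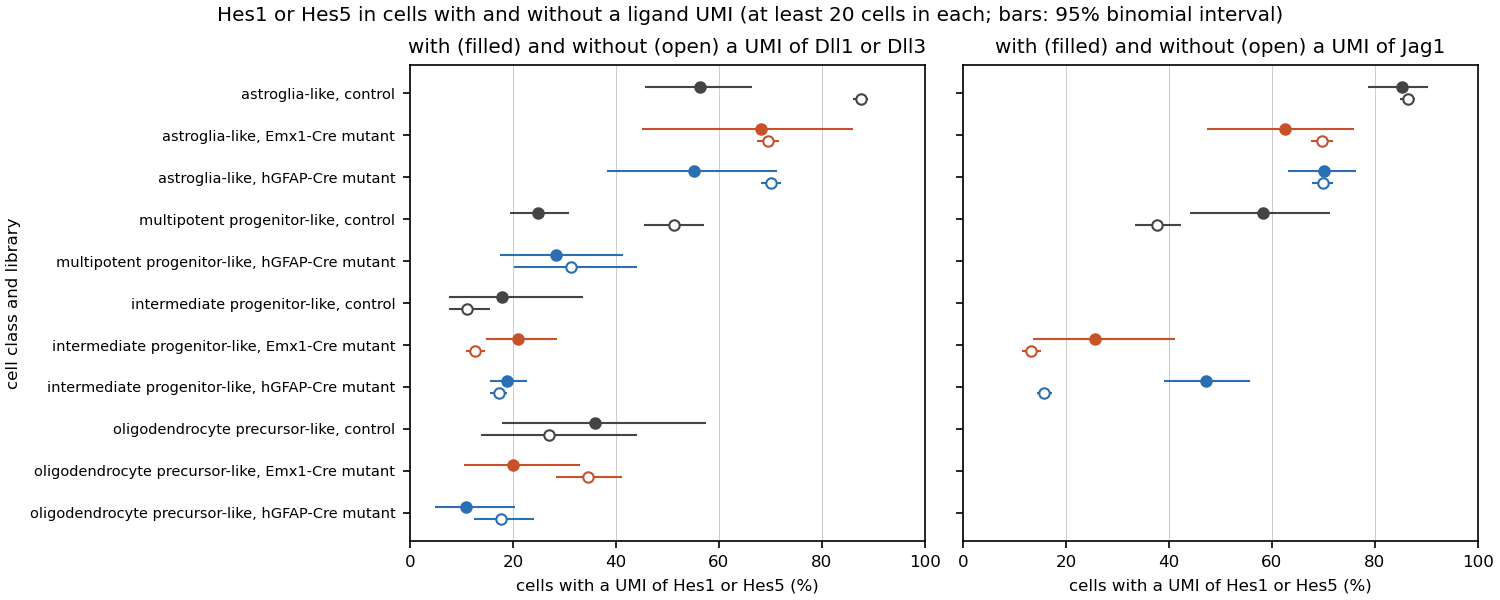
Share of cells with a UMI of Hes1 or Hes5 (x axis, percent, after thinning to 2500 UMIs) among cells with (filled) and without (open) a ligand UMI, by cell class and library (y axis), for Dll1 or Dll3 (left) and Jag1 (right), with exact binomial 95% intervals. Control multipotent cells sit at 24.9% with a Delta UMI and 51.3% without, and hGFAP-Cre intermediate progenitors at 47.3% with Jag1 and 15.8% without.

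In astroglia-like cells of the Emx1-Cre mutant, 7 of 9 NOTCH genes at 10 CPM or more were at least 1.5-fold lower than in the control and Heyl was higher. Notch3 lay between and Dll3 was under 10 CPM. Among all 8777 genes at that level 29.5% were lower and 7.18% higher by the same measure, and the median log2 ratio (with 5 CPM added) was −0.87 for the 9 genes and −0.32 for all genes. Lower values were thus frequent in this comparison. Relative to the median of all genes, 4 of the 9 stayed past the fold. The comparison took 1908 Emx1-Cre and 2345 control cells.

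The ligands were low in Emx1-Cre astroglia-like cells. Dll1 was at 17.2 CPM in the control, 1.19 with Emx1-Cre and 6.0 with hGFAP-Cre, which is 14.4-fold (9.11 to 24.2) lower in the first mutant on 19 UMIs and 2.87-fold (2.27 to 3.66) lower in the second. Its log2 ratio in the Emx1-Cre mutant (−1.84) was −0.43 and −0.54 with cells called 1 by 1 and each library clustered alone, and in the hGFAP-Cre mutant Dll1, like Hes6, was past 1.5-fold in 9 of 16 alternatives. Jag1 was at 28.4, 10.4 and 40.9 CPM, 2.72-fold lower (2.29 to 3.25) in the Emx1-Cre and higher, by less than 1.5-fold, in the hGFAP-Cre mutant. For both ligands the Emx1-Cre library had the lowest value. The markers of multipotent progenitors moved with Dll1: their 5 genes summed to 897 CPM in control, 323 in Emx1-Cre and 247 in hGFAP-Cre astroglia-like cells. Their part in the Dll1 result was not tested.

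Notch2 was the receptor with the widest range in this class, at 172 CPM in the control, 49.0 with Emx1-Cre and 236 with hGFAP-Cre. It was 3.52-fold (3.26 to 3.8) lower in the first and on the other side of the control in the second. Notch1 was at 212, 113 and 151 CPM, 1.87-fold lower in the Emx1-Cre mutant and lower by less than 1.5-fold in the hGFAP-Cre mutant. Notch3 was at 36.8, 41.4 and 50.8 CPM, within 1.5-fold of the control in both.

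Both canonical targets were lower in astroglia-like cells of both mutants. Hes1 was at 438, 245 and 178 CPM in control, Emx1-Cre and hGFAP-Cre cells, 1.79-fold (1.72 to 1.85) and 2.46-fold (2.35 to 2.57) lower. Hes5 was at 967, 536 and 539 CPM, 1.81-fold (1.76 to 1.85) and 1.79-fold (1.75 to 1.84) lower. Neither mutant's interval reached the control's for either gene. Centred on the median of all genes, the Emx1-Cre log2 ratios of Hes1 (−0.82) and Hes5 (−0.85) were −0.51 and −0.53, no longer past 1.5-fold, while those of the hGFAP-Cre mutant stayed past it. Hes6 was at 134, 40.4 and 80.7 CPM, 3.33-fold and 1.66-fold lower. Heyl went the other way, at 3.91, 27.7 and 12.9 CPM, 7.10-fold (5.65 to 8.99) and 3.30-fold (2.56 to 4.29) higher. Mural genes stood beside Heyl as follows: the 7 markers summed to 58.2, 44.8 and 70.5 CPM, with Acta2 at 1.1, 39.4 and 16.5 CPM. Of the pericyte markers, Pdgfrb was at 39.7, 2.5 and 46.8 CPM and Rgs5 at 16.7, 2.5 and 5.5 CPM. Vtn, Kcnj8, Abcc9 and Higd1b were at 0.83 CPM or less in all 3 libraries. The part of mural genes in the Heyl result was not tested.

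For the hGFAP-Cre mutant this makes 4 of 9 genes lower (Dll1, Hes1, Hes5 and Hes6), 1 higher (Heyl) and 4 between, with a median log2 ratio of −0.48 against −0.09 for all 8956 genes. Of those, 14.4% were lower and 10.3% higher. Split by a UMI of the division genes Mki67 or Top2a, Dll1 had a log2 ratio of −0.40 both in dividing cells and in the others, and Hes6 −0.07 and −0.41, so neither call held within either kind. Dividing cells made up 27.5% of the astroglia-like class in the control, 48.6% with Emx1-Cre and 9.13% with hGFAP-Cre. Hes1 (−0.72 in dividing and −1.56 in other cells) and Hes5 (−1.36 and −0.90) were lower in both kinds. In the Emx1-Cre mutant Dll1 (−2.57) and Hes6 (−2.38) had their largest difference in dividing cells, and Notch2 (−2.01) and Hes1 (−1.06) in the others, where the Hes1 ratio in dividing cells was −0.33.

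**Figure D3:**
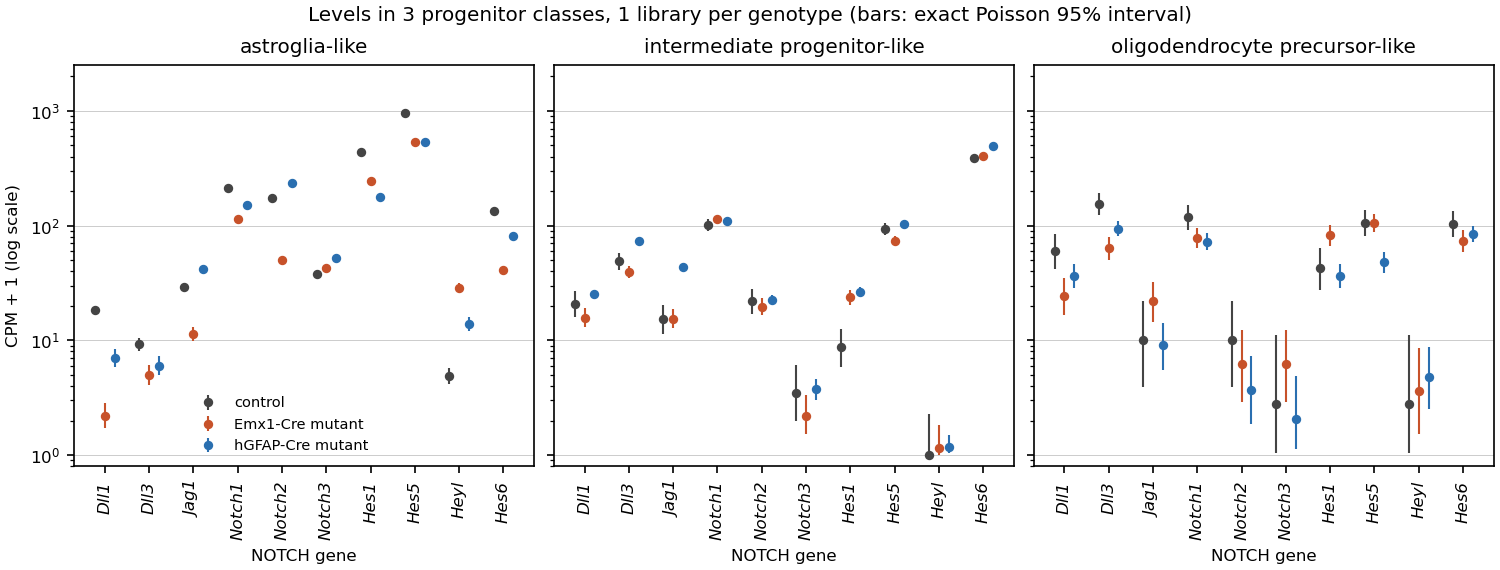
Level of each NOTCH gene, as CPM + 1 on a log axis, in 3 progenitor classes (panels) of the 3 libraries (colours), with exact Poisson 95% intervals. In astroglia-like cells Hes1 and Hes5 of both mutants lie below the control and Heyl above it, while in intermediate progenitor-like cells Hes1 lies above the control in both and Jag1 in the hGFAP-Cre mutant only.

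Different clusters held the astroglia-like class in each library. Clusters 9 and 24 held 55.7% and 19.96% of the control's cells, cluster 8 held 66.9% of the Emx1-Cre cells and cluster 4 held 87.6% of the hGFAP-Cre cells, while the dividing cluster 10 held 481, 609 and 113 cells. A further cluster, 16, had more raised astroglial than other markers but stayed unnamed, with 10, 90 and 690 cells. The values by cluster are therefore given, although the cells of a cluster were not alike in all libraries. In control, Emx1-Cre and hGFAP-Cre cells the astroglial markers summed to 28997, 46317 and 21719 CPM in cluster 8. In cluster 10 they summed to 14852, 34999 and 10092 CPM. The multipotent markers summed to 1034, 310 and 924 CPM in cluster 8. The part of these differences in the values below was not tested.

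Hes1 and Hes5 differed between libraries inside clusters. In cluster 8, Hes5 was at 1675 CPM (1579 to 1775) in 63 control cells, 646 in 1277 Emx1-Cre cells and 385 in 133 hGFAP-Cre cells, 2.59-fold and 4.35-fold lower. Hes1 in the same cluster was at 407, 246 and 190.3 CPM. In cluster 4, Hes1 was at 371 CPM (294 to 463) in 28 control cells and 178 in 1997 hGFAP-Cre cells, and Hes5 at 1261 and 598 CPM. In cluster 10, Hes5 was at 657, 380 and 243 CPM and Hes1 at 274, 243 and 165 CPM, with the Emx1-Cre Hes1 value less than 1.5-fold lower. In cluster 9, Hes1 was at 563 CPM in 1305 control cells and 168 in 32 hGFAP-Cre cells, and Hes5 at 886 and 409 CPM. In each of these 4 clusters the control had the highest value of both genes, on few control cells in clusters 4 and 8 and few mutant cells in cluster 9.

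Notch2 followed the cluster instead. In cluster 8 it was at 41.0 CPM (27.2 to 59.2) in control, 49.1 in Emx1-Cre and 43.2 in hGFAP-Cre cells. In cluster 4 it was at 233 CPM (173 to 308) in control and 283 in hGFAP-Cre cells, and in cluster 10 at 63.7, 46.9 and 45.8 CPM. Within a cluster the libraries thus differed by less than 1.5-fold, also in cluster 9 (319 CPM in control and 399 in hGFAP-Cre cells), while clusters 4 and 9 stood well above clusters 8 and 10 in both. Of the Emx1-Cre cells 0 lay in cluster 9 and 11 in cluster 4. The 3.52-fold lower class value of Notch2 in this mutant was not seen within a shared cluster.

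Dividing cluster 10 held most astroglia-like Dll1 UMIs, 328 of 401 in the control, 15 of 19 with Emx1-Cre and 56 of 87 with hGFAP-Cre. Of the Hes6 UMIs it held 1924 of 3131 in the control but the smaller part in the mutants, 239 of 643 and 401 of 1171. Dll1 was at 42.1 CPM in the control, 2.3 with Emx1-Cre and 38.8 with hGFAP-Cre, and Hes6 at 247, 36.1 and 278 CPM. The summed multipotent markers in this cluster were 1633, 339.8 and 1251 CPM in the same order, and their part was not tested. Jag1 in cluster 10 was at 29.7, 11.5 and 49.9 CPM. Heyl was at 7.3 CPM in control, 35.1 in Emx1-Cre and 15.5 in hGFAP-Cre cells of cluster 8, and at 2.2, 17.99 and 0.7 CPM in cluster 10. Emx1-Cre cells were thus above the control in both clusters. In cluster 8 the hGFAP-Cre interval (9.8 to 23.3) overlapped that of the control (2.4 to 17.1, on 5 UMIs). The hGFAP-Cre value in cluster 10 rested on 1 UMI. In cluster 4 Heyl was at 19.0 CPM (5.2 to 48.7) in control and 14.2 CPM in hGFAP-Cre cells.

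**Figure D4:**
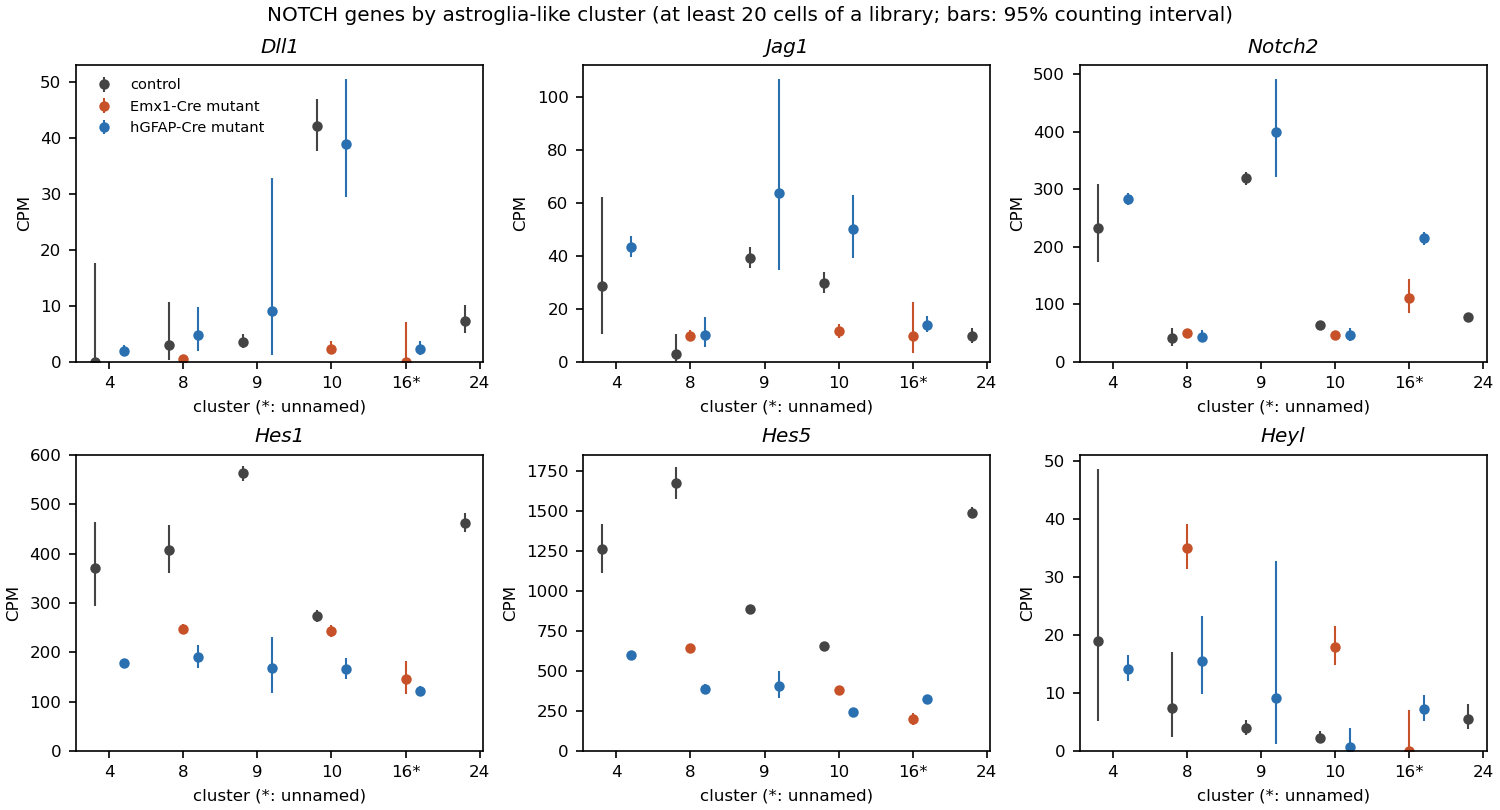
Level in CPM of 6 NOTCH genes (panels) by astroglia-like cluster (x axis; the unnamed cluster 16 is starred) and library (colours), where a library has at least 20 cells of the cluster, with 95% counting intervals. Hes1 and Hes5 of the control stand above the mutants in clusters 4, 8, 9 and 10, whereas Notch2 lies between 233 and 283 CPM in cluster 4 and between 41.0 and 49.1 CPM in cluster 8.

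Intermediate progenitor-like cells, the Eomes and Neurog2 class that makes excitatory neurons, had NOTCH levels nearer to the control. In the Emx1-Cre mutant (1358 cells against 304) 0 of 8 genes at 10 CPM or more were lower and 1 was higher, against 17.5% and 7.52% of all 8460 genes. In the hGFAP-Cre mutant (2642 cells) 0 were lower and 2 higher, against 12.6% and 8.43% of 8494 genes. Among all genes, lower values were also less frequent here than in astroglia-like cells (29.5% with Emx1-Cre and 14.4% with hGFAP-Cre). A set of 8 genes is small beside such shares. Notch1 was at 99.97 CPM in the control, 114.0 with Emx1-Cre and 109.6 with hGFAP-Cre, Notch2 at 21.0, 18.7 and 21.7 CPM, and Hes5 at 92.6, 73.1 and 102.6 CPM. These receptors and Hes5 stayed within 1.5-fold in both mutants. The astroglial markers in this class summed to 1269, 468 and 1170 CPM. Dividing cells made up 49.3% of the class in the control, 27.2% with Emx1-Cre and 28.5% with hGFAP-Cre. The median cell had 7873.5, 4186.5 and 5901 UMIs in the same order. The part of these differences in the ratios of this class was not tested.

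Hes1 and Jag1 were the 2 genes past the fold there. The median log2 ratio was −0.06 for the 8 genes and −0.16 for all genes in the Emx1-Cre mutant, and 0.28 and −0.09 in the hGFAP-Cre mutant. Hes1 was at 7.69 CPM in the control on 22 UMIs, 22.7 with Emx1-Cre and 25.5 with hGFAP-Cre, 2.95-fold (1.88 to 4.85) and 3.31-fold (2.16 to 5.34) higher, so its direction was the reverse of that in astroglia-like cells. Jag1 was at 14.3, 14.5 and 42.7 CPM, 2.98-fold (2.18 to 4.19) higher in the hGFAP-Cre mutant. Dll3 was at 47.9, 38.2 and 72.3 CPM and Dll1 at 19.9, 14.8 and 24.1 CPM, both within 1.5-fold of the control in each mutant. Jag1 was nearly absent from cluster 1, the largest of the class (1.8, 5.5 and 2.0 CPM), and highest in cluster 19, which had Cdkn1a and Neurog2 among its leading genes: 32.8 CPM in 30 control, 57.5 in 110 Emx1-Cre and 112.4 in 507 hGFAP-Cre cells. Cluster 19 held 9.9%, 8.1% and 19.2% of the class. In the dividing cluster 17, Jag1 was at 6.1, 19.6 and 41.7 CPM, so the hGFAP-Cre value was the highest in both clusters. In cluster 1 alone neither Jag1 (log2 ratio 0.03) nor Hes1 (0.14) was past the fold in the hGFAP-Cre mutant, and Hes1 of the Emx1-Cre mutant (1.13 for the class) was at 0.53 there and also with doublets kept. Hes1 in clusters 17 and 19 was at 10.9 and 26.2 CPM in the control, 29.7 and 78.8 CPM in the Emx1-Cre and 31.4 and 57.7 CPM in the hGFAP-Cre mutant.

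**Figure D5:**
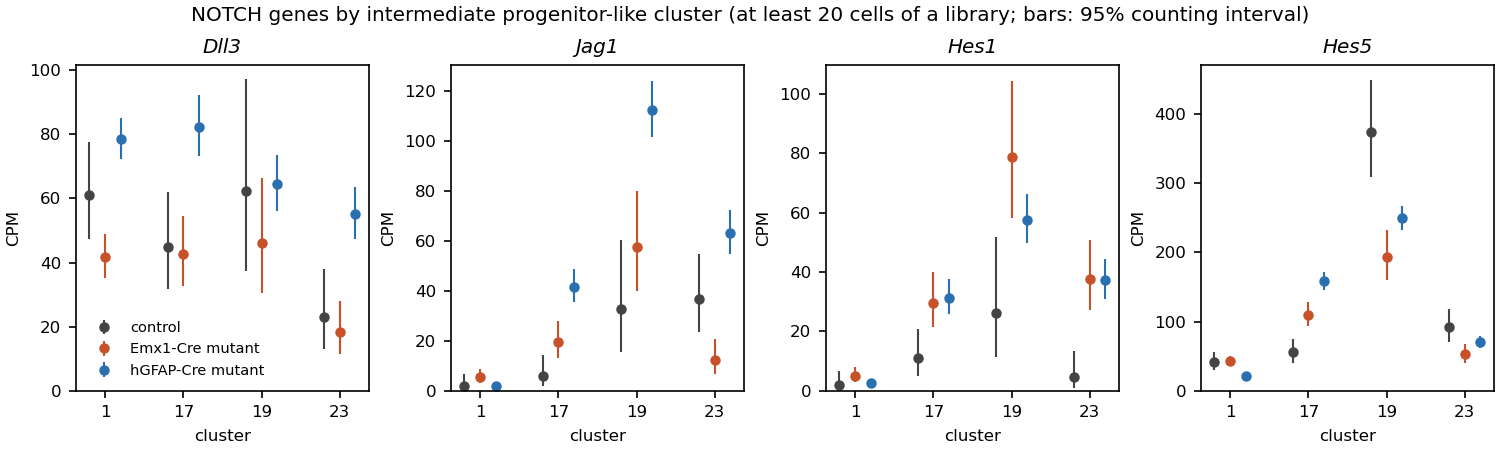
Level in CPM of Dll3, Jag1, Hes1 and Hes5 (panels) by intermediate progenitor-like cluster (x axis) and library (colours), where a library has at least 20 cells of the cluster, with 95% counting intervals. Jag1 reaches 112.4 CPM in hGFAP-Cre cells of cluster 19 and stays under 6 CPM in cluster 1 of all 3 libraries, and control Hes1 is the lowest of the 3 libraries in each cluster.

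In oligodendrocyte precursor-like cells the Delta ligands were lower in both mutants. Dll1 was at 59.7 CPM in 63 control cells (33 UMIs), 23.5 in 278 Emx1-Cre cells and 35.4 in 254 hGFAP-Cre cells, and Dll3 at 153.8, 62.7 and 92.8 CPM. Dll3 was 2.45-fold (1.77 to 3.41) and 1.66-fold (1.26 to 2.16) lower. Hes1 was at 41.6, 81.8 and 35.4 CPM, 1.97-fold higher in the Emx1-Cre mutant, and Hes5 at 104.9, 105.3 and 47.2 CPM, 2.22-fold lower in the hGFAP-Cre mutant. In the Emx1-Cre mutant 2 of 7 genes were lower and 2 higher (Jag1, on 5 control UMIs with an interval that spans no difference, and Hes1), against 22.4% and 13.2% of 9242 genes. In the hGFAP-Cre mutant 4 of 6 were lower (Notch1, Dll1, Dll3 and Hes5) and 0 higher, against 22.2% and 11.4% of 9183 genes. The median log2 ratios were −0.47 and −0.68 for the NOTCH genes and −0.13 and −0.14 for all genes. Hes5 of the hGFAP-Cre mutant (log2 ratio −1.07) was at −0.26 with each library clustered alone, and Dll1 (−0.68) was past 1.5-fold in 10 of 16 alternatives.

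The multipotent class could be compared for the hGFAP-Cre mutant only. Hes1 was at 161 CPM in the control and 20.9 in the mutant, 7.69-fold (4.84 to 13.0) lower on 18 UMIs, Hes5 at 434 and 221 CPM, and Notch2 at 38.4 and 15.1 CPM. The ligands Dll1 (150.5 and 150.9 CPM) and Jag1 (46.9 and 60.4 CPM) and the receptor Notch1 (212 and 179 CPM) lay within 1.5-fold. Both targets were thus lower beside like levels of Dll1 and Notch1. These Dll1 and Hes1 values changed with the processing. When cells with at least 2000 genes were clustered anew, the log2 ratio of Hes1 was 0.13 in place of −2.68 and that of Dll1 −1.03 in place of 0.00, and with each library clustered alone they were −0.47 and −0.89. Hes5 (−0.96) was lower past 1.5-fold in all 16 alternatives. In the olfactory bulb interneuron lineage, Notch1 was at 58.9 CPM in the control, 14.4 with Emx1-Cre, on 6 UMIs, and 26.3 with hGFAP-Cre. Different clusters held this class: dividing cluster 30, with 115 control, 2 Emx1-Cre and 39 hGFAP-Cre cells, gave 181 of the control's 301 Notch1 UMIs. In cluster 27 Notch1 was at 32.2, 22.1 and 21.6 CPM, with overlapping intervals. Dll1 had 0 of 416566 UMIs in the 99 Emx1-Cre cells, which allows a level of up to 7.20 CPM, against 16.3 CPM in the control.

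The rest of the pathway was taken as 49 genes in 8 groups. In astroglia-like cells of the Emx1-Cre mutant 20 of 35 genes at 10 CPM or more were lower and 2 higher (median −0.66), and in the hGFAP-Cre mutant 9 of 36 were lower and 3 higher (−0.24). Over all genes, 29.5% were lower and 7.18% higher in the first and 14.4% and 10.3% in the second. The nuclear complex around RBPJ had 8 and 3 of 10 genes lower, and the receptor glycosylation group, which tunes ligand choice, 4 and 1 of 4. Of the 7 genes of receptor cleavage, 0 were lower in either mutant, and their medians were both −0.03. The corepressor gene Tle1 was at 93.7 CPM in the control and 27.5 CPM in the Emx1-Cre mutant, and the coactivator gene Maml3 at 11.8 and 0.69 CPM. Epn1, an endocytic adaptor needed in sending cells, was at 72.8 CPM in the control and 25.1 in the hGFAP-Cre mutant.

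Dner, a Delta and Notch-like transmembrane protein of neurons, was higher in both classes. In hGFAP-Cre astroglia-like cells it was at 75.8 CPM against 29.7 in the control, and in intermediate progenitor-like cells at 8.04 CPM in the control, 72.2 with Emx1-Cre and 34.4 with hGFAP-Cre. In that second class 11 of 34 genes were lower and 2 higher in the Emx1-Cre mutant, and 5 of 35 lower and 2 higher in the hGFAP-Cre mutant. The shares of all genes were 17.5% lower and 7.52% higher, and 12.6% and 8.43%, so the hGFAP-Cre counts were near the background. Epn1 there was at 75.5, 36.3 and 35.1 CPM in control, Emx1-Cre and hGFAP-Cre cells, the feedback inhibitor gene Nrarp at 55.9 CPM in the control and 22.1 in the Emx1-Cre mutant, and Spen at 81.1 CPM in the control and 44.9 in the hGFAP-Cre mutant. In oligodendrocyte precursor-like cells 12 of 33 genes were lower and 4 higher in the Emx1-Cre mutant, with Mib2, Pofut1 and Numb among the lower ones. In the hGFAP-Cre mutant 17 of 35 were lower and 5 higher, with Neurl1a (0 UMIs in the control, which allows up to 5.43 CPM, and 12.9 CPM) among the higher and Hey1 (45.2 and 18.2 CPM) and Fbxw7 (47.0 and 20.4 CPM) among the lower ones. Over all genes 22.4% were lower and 13.2% higher with Emx1-Cre and 22.2% and 11.4% with hGFAP-Cre, so the counts of higher genes were near the background.

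Genes with the most similar pattern were sought by Pearson correlation of log2(CPM + 5) over 34 class-by-library sums, which share 3 libraries and their depths, so the values are descriptions. Among the genes most like Dll1 were Gsx2 (r = 0.90) and Smoc1 (0.88). Dll3 was most like Slc27a3 (0.81), Lypd1 and Pknox2 (both 0.80), and Jag1 like Tbrg1 (0.93) and Ginm1 (0.86). Gsx2 is also a marker of the multipotent class. Notch1 was most like Myo10 (0.93), Cdk2 and the neural stem cell filament gene Nes (both 0.92), Notch2 like Slc9a3r1 (0.91), Dapp1 and Pbxip1 (both 0.90), and Notch3 like Cox4i2 (0.96), Prrx2 (0.95) and Heyl (0.94). Hes5 was most like Fgfrl1 (0.93), E2f5 (0.92) and the serine synthesis gene Phgdh (0.90), and Hes1 like Cyr61 (0.94), Acadl and Sparc (both 0.92). Heyl had the highest value of all, with Cox4i2 (0.97), followed by Timp1 (0.95) and Fam101a (0.94), and Hes6 was most like Mycn (0.89), Tia1 and Adh5 (both 0.84).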

How the data were processed

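Single cells of 3 libraries, 1 per genotype, were analysed. The authors deposited raw UMI counts per gene and barcode, made with Cell Ranger 5.0.0 per the file headers and on genome build mm10 per the submitters' processing notes. Kept cells had a median of 6427 (control), 5000 (Emx1-Cre) and 5310 (hGFAP-Cre) UMIs. The lowest UMI count of a deposited barcode was 500, 2644 and 3065, so cells were called at different depths.

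Cells with at least 1000 genes and under 10% mitochondrial counts were kept, and Scrublet doublets (3.71%, 7.39% and 8.71% of barcodes) were removed in scanpy 1.11.5, with an expected rate of 10%. From 2000 variable genes without the NOTCH genes, 30 principal components and 15 neighbours gave 34 Leiden clusters (leidenalg 0.10.2, resolution 1), and no batch correction was applied. Clusters were named for the marker list with most genes raised at least 2-fold and seen in 25% of their cells, where at least 3 were. No name was given where markers of another class were more frequent among the 10 top genes. A difference from the study's own cell types may come from these rebuilt names.

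Levels are CPM of the summed counts of a class in a library, with exact Poisson 95% intervals. Log2 ratios used a pseudocount of 5 CPM, and a gene was counted at 10 CPM or more in either library and called from 1.5-fold on. Fold intervals are exact conditional Clopper-Pearson ones. A count of 0 was taken to allow 3 counts. Shares of cells used cells thinned to 2500 UMIs, which left out 533 control cells and none of the mutants'. All 10 genes are named, with up to 4 of the wider pathway list per comparison (largest log2 ratio past the fold) and the 3 most correlated genes of each. A few genes that these rules name are not reported here. Genes named as markers or beside a cluster are outside this rule. The genes and lists were chosen with earlier results of these data known. Other settings numbered 16, of which 3 were chosen after seeing the data, as were the shares of cells within clusters. Gene coordinates are from GENCODE M21 (GRCm38). Python 3.11.15, numpy 2.4.6, scipy 1.17.1 and igraph 0.11.9 were used.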

Additional observations from a re-analysis of the deposited data

Results flagged for a closer look

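In 3 cases a gene lay on opposite sides of the control in the 2 mutants, with neither counting interval reaching a ratio of 1. The difference between mutants was not tested, since each genotype was 1 library and both ratios share the control. In astroglia-like cells the log2 ratio of Notch2 was −1.72 with Emx1-Cre and 0.44 with hGFAP-Cre, and that of Jag1 −1.11 and 0.46. In intermediate progenitor-like cells the log2 ratio of Dll3 was −0.29 with Emx1-Cre and 0.55 with hGFAP-Cre. None of the hGFAP-Cre ratios reached 1.5-fold.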

How the results depend on the processing

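The 55 ratios of NOTCH genes in astroglia-like, intermediate progenitor-like, oligodendrocyte precursor-like and multipotent cells were recomputed under 16 alternatives. Of the 27 called, 24 kept their direction in all and 8 stayed past 1.5-fold in all: Hes1 and Hes5 (hGFAP-Cre) and Hes6, Heyl and Jag1 (Emx1-Cre) in astroglia-like, Dll1 and Dll3 (Emx1-Cre) in oligodendrocyte precursor-like and Hes5 (hGFAP-Cre) in multipotent cells. The 3 that reversed, all in the hGFAP-Cre mutant, were Hes1 in multipotent cells, to 0.13 with at least 2000 genes per cell, and Hes6 (0.17) and Heyl (−0.34) of astroglia-like cells in cluster 10 alone, the dividing cells best shared by the libraries (added after the data were seen). In that cluster 2 genes were higher in each mutant. In Emx1-Cre astroglia-like cells 4 genes were lower, in place of 7, when centred on the median of all genes. In hGFAP-Cre astroglia-like cells 2 were lower, in place of 4, with at least 2000 genes, at resolution 2, with each library clustered alone, with cells called 1 by 1 and in cells with no UMI of Mki67 or Top2a, and 0 were higher with a pseudocount of 20 CPM.

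In Emx1-Cre intermediate progenitor-like cells the higher count of 1 became 2 with at least 2000 genes, cells called 1 by 1 or thinning, and 0 with doublets kept or in cluster 1 alone, and 1 gene was lower with each library clustered alone. With hGFAP-Cre the higher count of 2 became 5 with each library clustered alone, 4 with cells called 1 by 1 and 0 in cluster 1, and 1 gene was lower under the last 2. For oligodendrocyte precursors, Emx1-Cre had 4 genes in place of 2 lower with mitochondrial counts under 5%, at resolution 0.5 or with cells called 1 by 1, and 5 with each library clustered alone, and 1 in place of 2 was higher with at least 2000 genes or a pseudocount of 20 CPM. With hGFAP-Cre 2 in place of 4 were lower with at least 2000 genes, at resolution 2 or thinned, and 1 when centred. The cause of these changes was not tested. No paired analysis was possible because each genotype was 1 library. Depth limits Dll1 in Emx1-Cre astroglia-like cells (19 UMIs), Hes1 in control intermediate progenitors (22 UMIs) and the control cells of clusters 4 and 8.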

Other observations

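Vascular cells had ligand, receptor and target genes together. Control endothelial-like cells (99) had Notch1 at 176 CPM, Jag1 at 46.0 and Hes1 at 514 CPM, and the 52 hGFAP-Cre cells 205, 46.5 and 440 CPM, with a UMI of Hes1 or Hes5 in 63.8% and 67.3% of cells after thinning. Mural-like cells of the Emx1-Cre (196 cells) and hGFAP-Cre mutant (82) had Notch3 at 158 and 214 CPM, Heyl at 98.9 and 142.4 CPM and Hes1 at 346 and 394 CPM. The 36 mural-like control cells had Notch3 at 456, Heyl at 232 and Hes1 at 372 CPM. Ependymal-like cells, which line the ventricle, had Notch2 at 52.8 and 74.2 CPM, Jag1 at 31.1 and 19.5 CPM and Hes1 at 88.4 and 112.1 CPM in the Emx1-Cre and hGFAP-Cre mutants. Microglia-like cells had Notch2 at 39.8 CPM in the control, 38.0 with Emx1-Cre and 42.0 with hGFAP-Cre, and Hes1 at 37.7, 76.8 and 28.2 CPM, with Hes5 at 8.2, 0.8 and 1.8 CPM. Different clusters held this class. In cluster 21 Hes1 was at 37.9, 36.3 and 27.0 CPM in 242 control, 78 Emx1-Cre and 219 hGFAP-Cre cells. Cluster 28 had 0 control cells, and its Hes1 was at 108 CPM in 153 Emx1-Cre and 32.5 CPM in 79 hGFAP-Cre cells.

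Hes5 in neuron classes was low, with the control highest in the 2 classes given. It was at 9.8, 3.0 and 3.1 CPM in newborn excitatory neuron-like and at 8.9, 1.0 and 2.6 CPM in upper-layer neuron-like cells of the control, Emx1-Cre and hGFAP-Cre libraries. Whether this is RNA of the neurons themselves was not tested.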
